A study of Drosophila melanogaster with 16 samples.

Results

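Midguts of female flies that carry RafGOF together with NotchDN were set against midguts that carry RafGOF alone, on whole-genome expression arrays. The comparison took the 4 arrays labelled RafGOF with NotchDN and the 4 labelled RafGOF, 8 of the 16 arrays of the series, and every probe set other than the manufacturer's controls. GOF in RafGOF marks a gain of function of Raf, a protein kinase, and NotchDN is a dominant-negative version of the receptor Notch. By the labels, both groups of the comparison carry RafGOF and differ by NotchDN. The labels name no control construct in the RafGOF group and no strain background. Effects of either cannot be told apart from those of NotchDN. The other 8 arrays come from midguts with RafGOF and NotchIC, by its name the intracellular form of Notch (4 arrays), and from wild-type midguts (4 arrays). They entered the fit as 2 further groups, and their values are given beside the results where they help to place a gene. The labels give the sex, the tissue and the constructs. The sources used here do not give the driver of the constructs, the cells it acts in, the time of expression, the age of the flies or the number of guts per array. No probe set carries N or Raf as its only symbol, so the 2 manipulated genes could not be checked, and that Notch was blocked rests on the labels.

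The adult fly midgut is renewed by intestinal stem cells, which divide and give rise to enteroblasts. Stem cells carry the ligand Delta on their surface and activate the receptor Notch in their daughters. Daughters with strong Notch activity become enterocytes, large polyploid cells that absorb and digest food, and daughters with weak Notch activity become enteroendocrine cells. When Notch is lost, stem-like cells and enteroendocrine cells are known to build up. Raf acts below the EGF receptor and Ras and above the MAP kinase, and this pathway is known to drive stem cell division in the midgut.

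Median signal on the 16 arrays lay between 5.48 and 5.70 on the log2 scale, the scale of every level and difference below. Arrays of RafGOF NotchDN correlated with each other across probe sets at 0.98 to 0.994, and those of RafGOF at 0.979 to 0.989. The arrays numbered 2 stood apart in all 4 groups, with scores of 0.411 to 0.445 on the first component of the deviations from the group means and scores of -0.224 to -0.0347 on all others. Same-numbered arrays of RafGOF NotchDN and RafGOF deviated together (r = 0.785, 0.726, 0.494 and 0.594 for numbers 1 to 4), so a fit with the replicate number as a block is given beside the results whose calls it changes. The midgut label was matched by the levels of the digestive protease list, whose mean was 11.26 to 12.05 on the RafGOF NotchDN arrays and 10.56 to 11.82 on the RafGOF arrays.

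In the fit without the block, few probe sets differed between RafGOF NotchDN and RafGOF. Of the 98 genes that rose in it, 28 belong to lists of cell division genes, chosen with earlier results of these data known. Of 18769 probe sets, 204 (1.09%) differed at an adjusted p under 0.05, 121 of them higher (0.645%) and 83 lower (0.442%) in RafGOF NotchDN. Of these, 58 were at least 2-fold higher (0.309%) and 29 at least 2-fold lower (0.155%). With 1 probe set per gene, 164 of 11982 genes differed (1.37%), 98 higher (0.818%) and 66 lower (0.551%). The median difference over all genes was 0.00, and 49.7% of genes were higher. At an unadjusted p under 0.05 the limma fit gave 8.57% of probe sets and 10.7% of genes, against which the unadjusted counts of the lists below are to be read. Against wild type, RafGOF NotchDN differed at 20.4% of probe sets, and RafGOF NotchIC differed from RafGOF at 2.34%. The groups with a form of Notch thus differed from RafGOF at far fewer probe sets than RafGOF NotchDN did from wild type. The 4 RafGOF NotchDN arrays did not overlap the 4 RafGOF arrays for 190 of the 204 probe sets, and over all probe sets the groups did not overlap for 4.09%. The calls rest on these same arrays, so rare overlap among them is built in. The 20 largest rises and 20 largest falls below were picked only among called genes without overlap, so their lack of overlap follows from that choice. In bulk tissue, fewer cells of a type and less RNA per cell cannot be told apart, which holds for every gene below.

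The size of this set depended on the fit. With the replicate number as a block, 792 probe sets were called (4.22%), 323 higher (1.72%) and 469 lower (2.5%). All 204 were among them, and the block added more falls than rises. Counted by gene, 2.14% rose and 3.2% fell with the block. Without the arrays numbered 2, 129 were called, 99 higher and 30 lower. With only the 8 arrays of the comparison in the fit, 27 were called, 19 higher and 8 lower. With these 8 arrays and the replicate block, a fit added after seeing the data, 1705 were called, 650 higher and 1055 lower. In each fit with the block, more probe sets fell than rose. Without the block, the count was 102 without RafGOF replicate 3, 104 without RafGOF NotchDN replicate 3 and 113 without RafGOF NotchDN replicate 2. Of the 204, 81 were called in each of the 8 fits that left out 1 array.

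**Figure D1:**
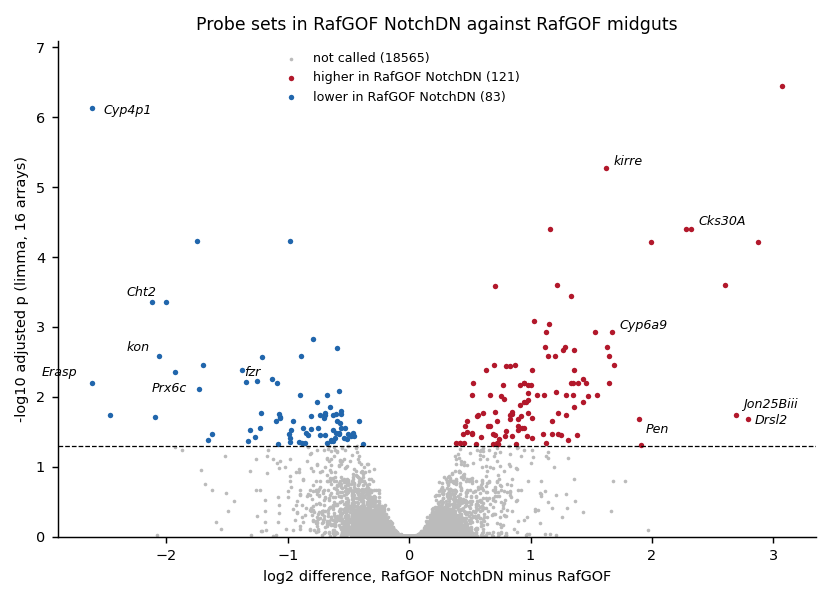
Each point is 1 of the 18769 probe sets, with the log2 difference of RafGOF NotchDN minus RafGOF on the x axis and -log10 of the adjusted p on the y axis. The dashed line marks an adjusted p of 0.05, above which lie 121 probe sets to the right (higher in RafGOF NotchDN) and 83 to the left (lower), with Drsl2 and Jon25Biii far to the right and Erasp and Cyp4p1 far to the left.

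Among the genes with the largest rises were a Cdk-binding protein, an importin and a pair of adhesion receptors. Cks30A, a small protein that binds cyclin-dependent kinases, had 9.39, 9.46, 9.77 and 9.84 on the RafGOF NotchDN arrays, against 7.07, 7.13, 7.34 and 7.62 on the RafGOF arrays. All 4 RafGOF NotchDN arrays lay above all 4 RafGOF arrays, with more than 1 log2 unit between the groups. Cks30A rose by 2.32 ± 0.209 on the log2 scale, or 5.01-fold (adjusted p = 3.98e-05). Here and below, a difference is given ± its moderated SE, from the fit to all arrays of the series, 4 in each group. Cks30A averaged 4.72 ± 0.46 in RafGOF NotchIC and 4.28 ± 0.29 in wild type (SD, n = 4 each), far below both groups of the comparison.

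Pen, an importin alpha that carries proteins into the nucleus, had 9.97, 11.48, 10.55 and 10.24 on the RafGOF NotchDN arrays, against 8.27, 9.61, 8.36 and 8.43 on the RafGOF arrays. The groups did not overlap, and array 2 was the highest in each. Pen rose by 1.89 ± 0.373, a 3.71-fold difference (adjusted p = 0.0206), and it was the only 1 of the 39 measured importin and nuclear pore genes that was called. The call was lost without replicate 1, 3 or 4 of RafGOF or replicate 2 or 3 of RafGOF NotchDN, with an adjusted p of at most 0.0779. The median of that list was 0.21, and Pen averaged 5.55 ± 0.59 in RafGOF NotchIC (SD, n = 4).

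kirre and rst, paralogous immunoglobulin-domain adhesion receptors known from myoblast fusion, rose together. For kirre the RafGOF NotchDN arrays read 7.65, 7.1, 7.35 and 7.16, against 5.87, 5.64, 5.81 and 5.46 on the RafGOF arrays, which is tight within each group. The rise was 1.62 ± 0.123, a 3.08-fold difference (adjusted p = 5.38e-06). For rst the RafGOF NotchDN arrays read 6.84, 7.27, 7.53 and 7.38, against 5.3, 6.12, 6.12 and 6.03 on the RafGOF arrays. The low value is RafGOF replicate 1, and the groups did not overlap. rst rose by 1.36 ± 0.192 (adjusted p = 0.00215). Both genes kept their call in all 8 fits that left out 1 array, and kirre was also called with the 8 arrays alone (adjusted p = 0.00479).

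A few of the largest rises were of genes that varied widely between arrays. Drsl2, a drosomycin-like antimicrobial peptide, read 8.53, 10.14, 9.87 and 11.4 in RafGOF NotchDN, against 7.14, 6.74, 7.21 and 7.67 in RafGOF. Its RafGOF NotchDN arrays ranged widely and all lay above those of RafGOF. It rose by 2.79 ± 0.551, a 6.94-fold difference (adjusted p = 0.0206), and the call was lost without replicate 2 or 3 of RafGOF or replicate 2, 3 or 4 of RafGOF NotchDN, with an adjusted p of at most 0.0684. Jon25Biii, a serine protease of the Jonah family of gut digestive enzymes, read 14.08, 13.07, 13.03 and 13.31 in RafGOF NotchDN, against 12.24, 10.63, 10.76 and 9.11 in RafGOF. Here the RafGOF arrays ranged widely, and wild-type midguts averaged 14.35 ± 0.09 (SD, n = 4). The rise was 2.69 ± 0.517, a 6.45-fold difference (adjusted p = 0.0181, and 0.0571 without RafGOF replicate 3). Without the arrays numbered 2 neither gene was called (adjusted p = 0.115 for Drsl2 and 0.091 for Jon25Biii).

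The other genes among the 20 largest rises lay between 1.27 and 1.67. Cyp6a9, a cytochrome P450, rose by 1.67 ± 0.219 (adjusted p = 0.0012). bw, an ABC transporter of pigment precursors, rose by 1.65 ± 0.24 (adjusted p = 0.00263), and kuk, a protein of the nuclear envelope, by 1.63 ± 0.227 (adjusted p = 0.00196). sip2, a septin-interacting protein, rose by 1.43, msb1l by 1.35 and mei-38, a microtubule protein of the spindle, by 1.33. rau, an adaptor that sustains signalling of receptor tyrosine kinases, read 10.39, 11.24, 10.35 and 10.65 in RafGOF NotchDN, against 9.07, 9.68, 8.91 and 9.8 in RafGOF, and rose by 1.29 ± 0.227 (adjusted p = 0.00958). None of these 7 genes lost its call in the fits that left out 1 array. Symbols that are only a CG number were passed over 2 times among the rises. They were CG31810, which had the largest rise of all genes (3.07 ± 0.179, adjusted p = 3.55e-07), and CG8173 (1.28).

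Genes that fell in RafGOF NotchDN were of many kinds. Among those without overlap and with a symbol other than a CG number, Erasp, a P450, a proteoglycan and a chitinase led. Erasp read 6.66, 6.83, 7.45 and 8.9 in RafGOF NotchDN, against 9.88, 10.24, 10.53 and 9.63 in RafGOF, a log2 difference of -2.61 ± 0.43 (adjusted p = 0.00637, and 0.0614 without the arrays numbered 2). Array 4 of RafGOF NotchDN was the highest of its group and array 4 of RafGOF the lowest, and the groups still did not overlap. Cyp4p1, a cytochrome P450, read 7.43, 8.14, 8.18 and 8.11 in RafGOF NotchDN, against 10.48, 10.53, 10.75 and 10.53 in RafGOF. Its difference of -2.61 ± 0.167 had the smallest adjusted p of the falls among genes (7.42e-07), and wild-type midguts averaged 7.81 ± 0.13 (SD, n = 4).

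kon, a transmembrane chondroitin sulfate proteoglycan, read 6.59, 7.26, 6.92 and 7.97 in RafGOF NotchDN, against 8.71, 9.95, 9.55 and 8.76 in RafGOF, and fell by 2.06 ± 0.299 (adjusted p = 0.00263). Cht2, a chitinase, read 6.43, 6.8, 6.91 and 7.02 in RafGOF NotchDN, against 8.37, 9.34, 9.09 and 8.34 in RafGOF, and fell by 2.0 ± 0.236 (adjusted p = 0.000435). For both genes the groups did not overlap. Cht2 averaged 6.79 ± 0.25 in RafGOF NotchDN and 6.78 ± 0.15 in wild type, while kon averaged 7.19 ± 0.59 in RafGOF NotchDN and 6.26 ± 0.24 in wild type (SD, n = 4 each). In values that share the RafGOF arrays with the falls, RafGOF exceeded wild type by 2.76 for Cyp4p1, 3.30 for Erasp, 2.98 for kon and 2.0 for Cht2. Prx6c, a peroxiredoxin, fell by 1.73 ± 0.293 (adjusted p = 0.00764, and 0.0512 without the arrays numbered 2). Its neighbour in the RefSeq gene order, CG11825, fell by 1.62 (adjusted p = 0.0336).

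hh, the ligand Hedgehog, read 6.31, 7.04, 7.09 and 7.62 in RafGOF NotchDN, against 7.81, 8.85, 8.57 and 7.92 in RafGOF. The highest RafGOF NotchDN array lay just under the lowest RafGOF array. hh fell by 1.27 ± 0.279 (adjusted p = 0.0379), and the call was lost in 5 of the 8 fits that left out 1 array (replicates 2 and 3 of RafGOF, replicates 1, 2 and 3 of RafGOF NotchDN), with an adjusted p of at most 0.137, as without the arrays numbered 2. Coq9, of ubiquinone synthesis, fell by 1.13, Stlk, a kinase-like protein of the STE20 family, by 1.06, and sturkopf, a lipid droplet protein, by 0.98 ± 0.0944 (adjusted p = 5.96e-05). Gyg, the glycogenin that primes glycogen synthesis, fell by 0.98, and on a second probe set of this gene the difference was -0.48 (adjusted p = 0.725, and 0.00876 with the replicate block). bbg, a PDZ-domain protein, fell by 0.91, and its second probe set differed by -0.32 (adjusted p = 0.642).

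The rest of the 20 largest falls lay between -1.34 and -0.79. Cyp4ac3 fell by 1.34, Cyp9c1 by 0.85 and Cyp6a8 by 0.83, all cytochromes P450, and Ugt36E1, a UDP-glycosyltransferase, by 0.79. HisT fell by 0.90, Rnf11, a RING-finger protein, by 0.88, Mgat2, an enzyme of N-glycan processing, by 0.87, and shv, a DnaJ-family protein, by 0.81. Calls of Gyg, bbg, Rnf11, Mgat2, Cyp9c1 and Cyp6a8 were lost in 5 to 7 of the 8 fits that left out 1 array, always including RafGOF replicate 3 and RafGOF NotchDN replicate 3, with an adjusted p of at most 0.17. That of Stlk was lost in 4 (replicates 2 and 3 of RafGOF, 3 and 4 of RafGOF NotchDN), and that of shv without replicate 2 or 3 of RafGOF. CG symbols were passed over 11 times, the largest being CG15695 (-2.46, with an adjusted p of at most 0.0622 without replicate 2 or 3 of RafGOF or 3 of RafGOF NotchDN), CG12934 (-2.12) and CG34007 (-1.70).

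**Figure D2:**
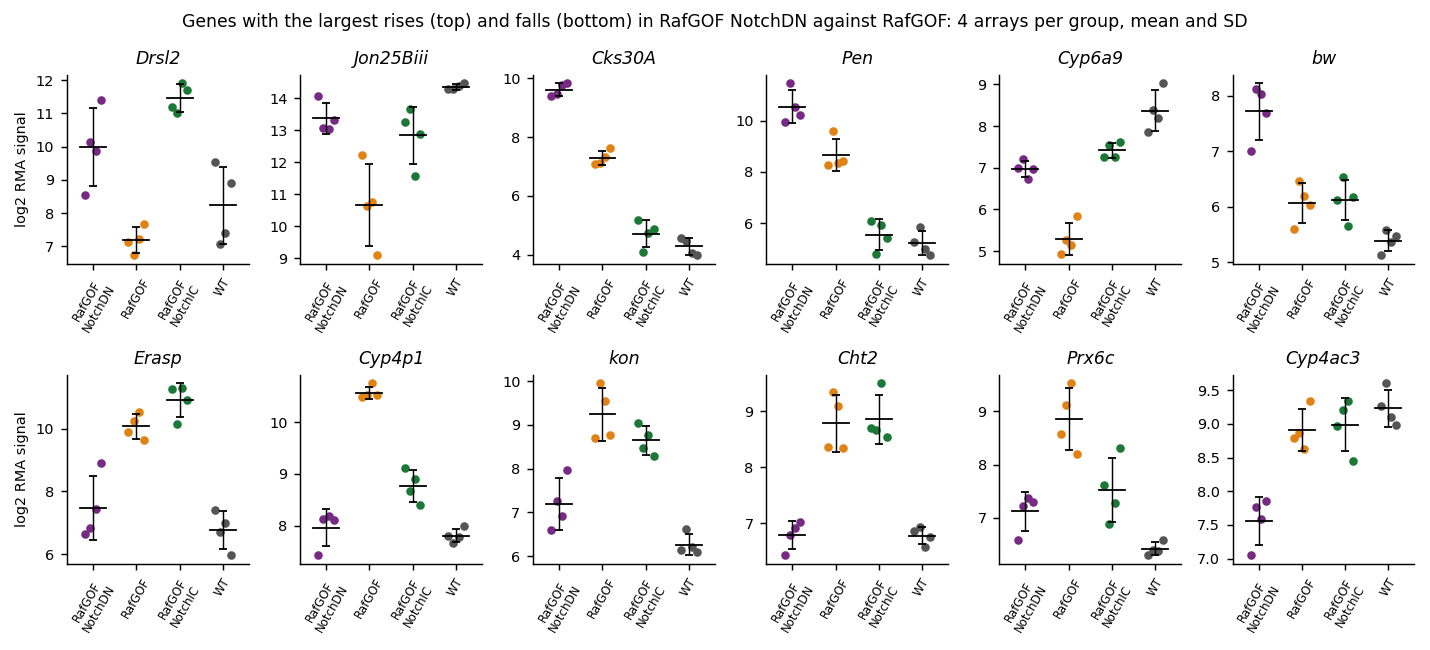
Signal (log2 RMA, y axis) of 6 genes that rose and 6 that fell in RafGOF NotchDN against RafGOF, 1 point per array. Bars give the mean and SD of 4 arrays. The genes had the largest rises and falls among called genes without overlap between the groups, with symbols of a CG number passed over. In RafGOF NotchDN, Cks30A (mean 9.61) and Pen (10.56) stand above all other groups, while Cyp4p1 (7.96) and Cht2 (6.79) lie near the wild-type level and RafGOF (10.57 and 8.79) lies above it.

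Genes of cell division were the largest group of rises among the lists. Across 4 lists of cell division genes, 28 of 127 measured genes rose and 1 fell, 22.8% called against 1.37% of all genes. The median difference was 0.39 against 0.00 over all genes. The lists were chosen with earlier results of these data known, so the shares here and for the lists below only describe them. Signal levels were unlike as well, since 118 of the 127 genes lay above the array median, against 7508 of 11982 genes. Of the 127, 112 had a positive difference, and for 32 the groups did not overlap, while over all genes they did not overlap for 4.89%, with RafGOF NotchDN above for 2.42% and below for 2.47%. The mean level of the 127 genes was 7.33 to 7.94 on the RafGOF NotchDN arrays and 6.99 to 7.52 on the RafGOF arrays. With the replicate block 44 rose, with median-centred arrays 17 and with only the 8 arrays 4. Without RafGOF NotchDN replicate 3 it was 13, and 16 without replicate 1 or 4 of RafGOF or replicate 2 or 4 of RafGOF NotchDN. Without the arrays numbered 2 it was 24.

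The chromosomal passenger complex corrects faulty attachments of chromosomes and then marks the middle of the spindle, where the cell is cut into its daughters. In the list of this complex, the central spindle and cytokinesis, 8 of 19 genes rose, none fell, and the median was 0.85. With the replicate block 11 rose. aurB, the kinase of the complex, read 7.99, 8.3, 8.38 and 8.78 in RafGOF NotchDN, against 6.93, 7.04, 7.25 and 7.13 in RafGOF. The groups were well separated, and aurB rose by 1.27 ± 0.18 (adjusted p = 0.00216). borr, the Borealin subunit, read 8.77, 9.2, 9.58 and 9.59 in RafGOF NotchDN, against 7.57, 8.17, 8.11 and 8.04 in RafGOF, and rose by 1.31 ± 0.291 (adjusted p = 0.0413). Det, another subunit, rose by 0.79 ± 0.171 (adjusted p = 0.0361). For Incenp, the scaffold of the complex, the difference was 1.14 ± 0.274 and was called only with the replicate block (adjusted p = 0.0617, and 0.00875 with the block). Calls of borr and Det were lost in all fits that left out 1 array except that without RafGOF NotchDN replicate 1, with adjusted p of at most 0.149 and 0.131.

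Among the genes of the spindle midzone and its motors, feo, a bundler of antiparallel microtubules, read 8.25, 8.94, 9.14 and 9.19 in RafGOF NotchDN, against 6.87, 7.92, 7.53 and 7.31 in RafGOF. It rose by 1.47 ± 0.26 (adjusted p = 0.00984) without overlap. cmet, a kinesin of the CENP-E type, rose by 1.46 ± 0.238 (adjusted p = 0.0063), and tum, the RacGAP of centralspindlin, by 1.29 ± 0.248 (adjusted p = 0.0181). The kinesins Klp67A and Klp61F rose by 0.98 and 0.96. tum lost its call without replicate 1 or 4 of RafGOF or 2 or 3 of RafGOF NotchDN (adjusted p of at most 0.0679), and Klp61F without RafGOF NotchDN replicate 3 (0.0509).

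Of 49 genes of the kinetochore, spindle, centrosome and condensin, 12 rose and none fell, with a median of 0.42. With the block 18 rose and none fell. Nuf2 and Spc25, of the complex that grips microtubules at the kinetochore, rose by 1.25 and 0.98. mad2 and Bub3, of the spindle checkpoint, rose by 1.23 ± 0.233 and 0.52 ± 0.112 (adjusted p = 0.0169 and 0.0341). mad2 read 8.22, 8.39, 8.53 and 8.61 in RafGOF NotchDN, against 7.03, 7.17, 7.34 and 7.29 in RafGOF, and stayed called with only the 8 arrays (adjusted p = 0.0051). rod, which brings dynein to kinetochores, rose by 0.78, and cid, the histone of the centromere, by 0.73 (adjusted p = 0.0479). Calls of Bub3 and cid were lost in all fits that left out 1 array except that without RafGOF NotchDN replicate 1, and Nuf2 lost its call in 6, with adjusted p of at most 0.135, 0.184 and 0.127. mad2 lost its call without replicate 3 or 4 of RafGOF NotchDN (at most 0.0593).

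Of the 12, 6 belong to augmin, the complex that makes new microtubules branch from existing ones in the spindle. It was singled out after its values were seen. Of its 8 subunits, 6 rose (msd1 1.13, msd5 0.98, dgt5 0.95, wac 0.92, dgt4 0.83 and dgt6 0.63), 7 were called with the replicate block, and the median was 0.88. The mean level of the 8 subunits was 7.08 to 7.49 on the RafGOF NotchDN arrays and 6.47 to 6.6 on the RafGOF arrays. wac lost its call in 5 of the 8 fits that left out 1 array (replicates 1, 2 and 4 of RafGOF, 3 and 4 of RafGOF NotchDN), with an adjusted p of at most 0.0804. msd1 and msd5 are neighbours in the RefSeq gene order.

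Of 20 cyclins, Cdks and mitotic regulators, 5 rose and 1 fell, with a median of 0.37. With the block 7 rose and 1 fell, the added rises being CycB3, another mitotic cyclin (0.92), and gwl, the Greatwall kinase of mitotic entry (0.70), both picked after their values were seen. Besides Cks30A, the rises were pim, the securin that holds back separase (1.36 ± 0.211, adjusted p = 0.00413), fzy, an activator of the anaphase-promoting complex (1.23), CycB, the mitotic cyclin B (1.13), and Sse, separase (0.72). fzy read 7.15, 8.72, 7.88 and 7.81 in RafGOF NotchDN, against 6.25, 7.22, 6.77 and 6.4 in RafGOF, so array 1 of RafGOF NotchDN lay below array 2 of RafGOF. A second probe set of fzy differed by -0.02 (adjusted p = 0.997). CycB and fzy lost their calls without replicate 1, 3 or 4 of RafGOF or 2, 3 or 4 of RafGOF NotchDN (adjusted p of at most 0.155 and 0.101). Sse lost its call in all but the fit without RafGOF NotchDN replicate 1 (at most 0.172). CycE, which drives entry into S phase, differed by 0.39 and was not called (adjusted p = 0.866). CycE was picked after its value was seen.

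fzr, the other activator of the anaphase-promoting complex and a gene that the endocycle of polyploid cells needs, was the only gene of the 4 lists that fell. It read 7.06, 7.29, 7.18 and 7.66 in RafGOF NotchDN, against 7.84, 8.63, 8.4 and 8.7 in RafGOF. The groups did not overlap, and fzr was lower in all 4 same-numbered pairs. It fell by 1.09 ± 0.181 (adjusted p = 0.00637, and 0.0759 without the arrays numbered 2), and averaged 8.49 ± 0.26 in RafGOF NotchIC and 7.30 ± 0.11 in wild type (SD, n = 4 each).

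Of 39 DNA replication genes, 3 rose and none fell with a median of 0.33, and 8 rose with the replicate block. Ts, the thymidylate synthase, read 9.01, 9.82, 9.8 and 9.77 in RafGOF NotchDN, against 8.24, 8.69, 8.81 and 8.63 in RafGOF, and rose by 1.01 ± 0.198 (adjusted p = 0.0202). RfC3, of the clamp loader, rose by 0.72, and PolD2, of DNA polymerase delta, by 0.56. PCNA, the sliding clamp, differed by 0.47 without being called (adjusted p = 0.479), as did Mcm2 of the replicative helicase (0.57, adjusted p = 0.524). PCNA and Mcm2 were picked after their values were seen. Whether replication genes and mitotic genes differ in how often they rose was not tested. RfC3 lost its call in 6 of the 8 fits that left out 1 array, and Ts and PolD2 in 4, each including replicates 2, 3 and 4 of RafGOF NotchDN, with adjusted p of at most 0.0836, 0.0848 and 0.0742.

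**Figure D3:**
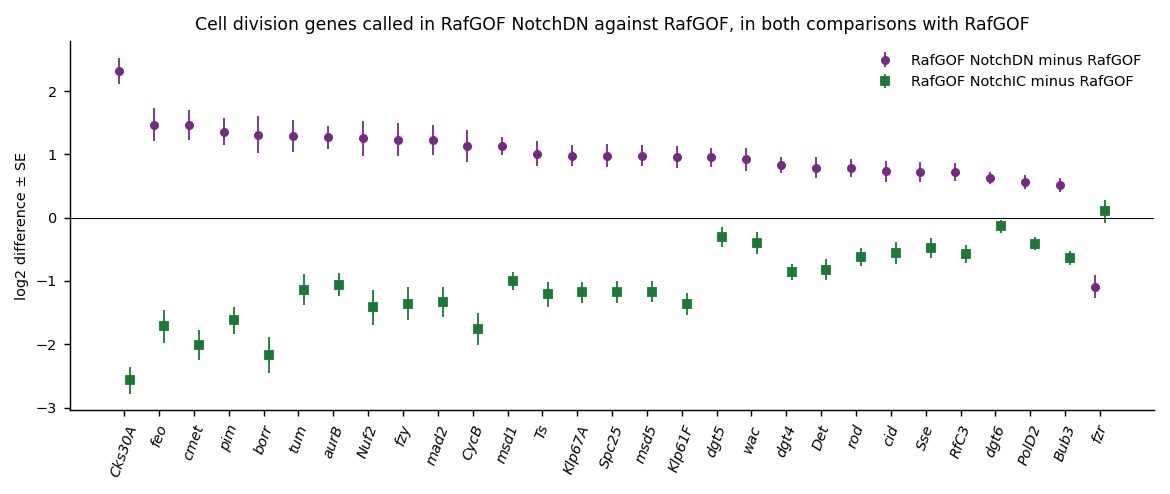
Log2 difference from RafGOF (y axis, with SE) of the 29 cell division genes called in RafGOF NotchDN minus RafGOF, in order of that difference, beside RafGOF NotchIC minus RafGOF for the same genes. Cks30A is at 2.32 with NotchDN and -2.57 with NotchIC at the left end, and fzr at -1.09 with NotchDN and 0.10 with NotchIC at the right end. Both differences use the same RafGOF arrays.

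Of 10 progenitor genes, 2 rose and none fell, with a median of 0.47. With the replicate block 4 rose and 1 fell. spdo, a transmembrane protein that regulates Notch trafficking after asymmetric divisions, read 7.69, 8.08, 7.91 and 7.55 in RafGOF NotchDN, against 7.02, 6.78, 6.63 and 6.32 in RafGOF. The groups did not overlap, and spdo rose by 1.12 ± 0.155 (adjusted p = 0.00196). zfh2, a zinc-finger homeodomain factor of progenitors, read 4.9, 5.22, 5.96 and 5.49 in RafGOF NotchDN, against 3.68, 4.1, 4.41 and 4.53 in RafGOF, and rose by 1.21 ± 0.208 (adjusted p = 0.00861, and 0.0677 without the arrays numbered 2).

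Delta, the Notch ligand that marks stem cells, read 8.32, 8.73, 10.02 and 9.81 in RafGOF NotchDN, against 7.55, 7.9, 8.23 and 7.98 in RafGOF. The groups did not overlap, but arrays 3 and 4 of RafGOF NotchDN lay more than 1 log2 unit above arrays 1 and 2. On this probe set the difference of 1.31 ± 0.324 was called only with the replicate block (adjusted p = 0.0747, and 0.0174 with the block). On the second probe set of Delta, RafGOF NotchDN read 8.61, 9.67, 9.89 and 9.72, against 7.38, 8.33, 8.02 and 7.96 in RafGOF. There the difference of 1.55 ± 0.27 was called (adjusted p = 0.00944).

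esg, the transcription factor that keeps stem cells and enteroblasts undifferentiated, read 10.77, 12.02, 11.34 and 10.83 in RafGOF NotchDN, against 9.83, 11.16, 10.29 and 10.13 in RafGOF. The groups overlapped, since array 2 was the highest in both, and each RafGOF NotchDN array lay above the RafGOF array of its own number. The difference of 0.89 ± 0.312 was called only with the block (adjusted p = 0.305, and 0.00392 with the block). The other progenitor factors were not called in the fit without the block. neur, a ligase that activates Delta, differed by 0.65, Sox100B by 0.29, mira by 0.28, Sox21a by -0.06, klu, an enteroblast factor, by -0.42 and GEFmeso by -0.52 (adjusted p = 0.00668 with the block).

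None of the 15 measured Notch target genes of the E(spl) and Brd families was called by limma, with a median of 0.05, and 2 had an unadjusted p under 0.05. With the block 1 fell. E(spl)m3-HLH, a bHLH repressor, read 9.45, 9.82, 10.55 and 10.41 in RafGOF NotchDN, against 10.58, 11.09, 11.03 and 10.51 in RafGOF. The groups overlapped at array 3 of RafGOF NotchDN, and the difference of -0.74 ± 0.248 was not called (adjusted p = 0.258, and 0.103 with the block). E(spl)mbeta-HLH, a repressor of the same family, read 8.66, 8.19, 8.67 and 8.76 in RafGOF NotchDN, against 9.04, 8.92, 9.02 and 9.31 in RafGOF. These groups did not overlap, and the difference of -0.50 ± 0.18 was called only with the block (adjusted p = 0.319, and 0.0415 with the block). E(spl)malpha-BFM differed by -0.37 and E(spl)m7-HLH by -0.23. The remaining 11 genes differed by -0.18 to 0.17. The mean level of the list was 5.29 to 5.54 on the RafGOF NotchDN arrays and 5.48 to 5.63 on the RafGOF arrays, and 5 of the 15 genes lay above the array median.

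Of 17 components of the Notch pathway none was called on its probe set of highest mean signal, with a median of 0.04. On these probe sets 5 had an unadjusted p under 0.05 and 2 rose with the block. The 2 were Delta and kuz, the protease that cleaves Notch after ligand binding (0.75, adjusted p = 0.666, and 0.0392 with the block). The second probe set of Delta was called without the block, as given above. bib, an aquaporin-family protein, differed by 1.06 (adjusted p = 0.418) and O-fut1, which adds fucose to Notch, by 0.61 (adjusted p = 0.282). fng, which lengthens that fucose and tunes ligand choice, differed by -0.79 (adjusted p = 0.421). mam, H and gro, of the transcription complexes at Notch targets, differed by 0.13, 0.04 and 0.18.

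**Figure D4:**
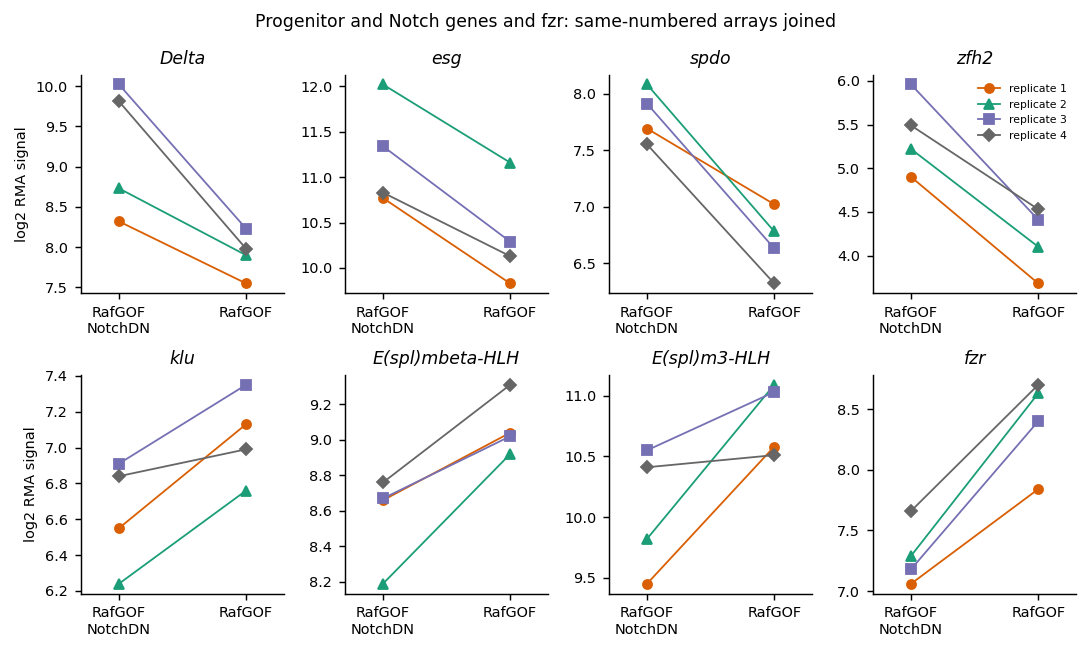
Signal (log2 RMA, y axis) on each RafGOF NotchDN array joined to the RafGOF array of the same replicate number, for 8 genes. Delta, esg, spdo and zfh2 are higher in RafGOF NotchDN in all 4 pairs, and klu, E(spl)mbeta-HLH, E(spl)m3-HLH and fzr are lower in all 4 pairs. esg and E(spl)m3-HLH overlap between the groups.

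Of 15 enteroendocrine specification factors 1 rose, with a median of 0.08. This was sc, a proneural bHLH factor that turns progenitors towards the enteroendocrine fate. It read 6.89, 7.18, 8.04 and 8.14 in RafGOF NotchDN, against 5.95, 6.22, 6.38 and 6.29 in RafGOF. The groups did not overlap, and arrays 3 and 4 of RafGOF NotchDN were the highest, as for Delta. sc rose by 1.35 ± 0.221 (adjusted p = 0.00634) and kept its call in all 8 fits that left out 1 array. The related genes ac, l(1)sc and ase differed by -0.06, 0.12 and 0.08. pros, the factor that marks enteroendocrine cells, read 5.79, 5.83, 5.93 and 6.43 in RafGOF NotchDN, against 5.82, 5.78, 5.64 and 5.95 in RafGOF. These groups overlapped, and the difference of 0.20 ± 0.161 was not called (adjusted p = 0.913). emc, which holds proneural factors inactive, differed by -0.31 and fell only with the block (adjusted p = 0.151, and 0.0377 with the block).

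Of 20 genes for enteroendocrine peptides and their secretion, none rose and 1 fell, with a median of 0.03. Pal1, an enzyme of peptide amidation, fell by 0.56 ± 0.115 (adjusted p = 0.0277), and lost its call in 6 of the 8 fits that left out 1 array, all but those without RafGOF replicate 3 or RafGOF NotchDN replicate 1 (adjusted p of at most 0.0983). Among peptides picked after their values were seen, AstC differed by 0.16, NPF by 0.14 and Dh31 by -0.36, and none was called.

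In the EGFR, Ras and MAPK list none of 19 genes was called, with a median of -0.07, while 4 had an unadjusted p under 0.05 and 3 rose with the block. These 3 were the receptor and a pair of feedback inhibitors. Egfr read 7.09, 8.42, 7.75 and 7.61 in RafGOF NotchDN, against 6.74, 7.54, 6.75 and 6.75 in RafGOF, a difference of 0.77 ± 0.285 (adjusted p = 0.354, and 0.00145 with the block). aos, a secreted inhibitor of the receptor, read 8.24, 9.78, 9.07 and 9.12 in RafGOF NotchDN, against 7.38, 8.82, 7.71 and 7.95 in RafGOF, a difference of 1.09 ± 0.314 (adjusted p = 0.159, and 0.00474 with the block). sty, the inhibitor Sprouty, differed by 0.71 (adjusted p = 0.315, and 0.0169 with the block). For all 3 genes the groups overlapped while every same-numbered pair was higher in RafGOF NotchDN. The ligands spi and Krn differed by 0.22 and -0.15, and the MAP kinase phosphatase Mkp3 by 0.27. None of the 8 JAK/STAT genes was called (median -0.03, 1 with an unadjusted p under 0.05), with upd1 at -0.58, upd2 at 0.35 and the receptor dome at -0.21. None of the 12 JNK and apoptosis genes was called (median -0.11, 4 with an unadjusted p under 0.05).

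Of 28 digestive proteases 2 rose and none fell, 7.14% called against 1.37% of all genes, with a median of 0.33. With the block 3 rose and 1 fell. The added calls, named after their values were seen, were betaTry, a trypsin (0.72, adjusted p = 0.0537, and 0.0191 with the block), and Ser6, a serine protease (-0.42, adjusted p = 0.181, and 0.00759 with the block). Besides Jon25Biii, epsilonTry, a trypsin, read 14.55, 14.36, 14.28 and 14.28 in RafGOF NotchDN, against 14.02, 13.66, 13.54 and 13.06 in RafGOF. It rose by 0.80 ± 0.168 (adjusted p = 0.0305) and lost its call in all fits that left out 1 array except that without RafGOF replicate 1, with an adjusted p of at most 0.0924. Of 26 genes of carbohydrate and lipid digestion none was called (median 0.11, 3 with an unadjusted p under 0.05). Without the arrays numbered 2 no gene of the protease list was called. None of 17 enterocyte and region factors was called, with a median of -0.07 and 1 at an unadjusted p under 0.05. With the block exex, a homeodomain factor, fell (-1.19, adjusted p = 0.000952 with the block and 0.301 without it).

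Of 81 cytochromes P450 1 rose and 4 fell, 6.17% called against 1.37% of all genes, with a median of -0.04. With the block 2 rose and 9 fell. Cyp6a9 read 7, 7.2, 6.72 and 6.96 in RafGOF NotchDN, against 4.94, 5.26, 5.14 and 5.84 in RafGOF, and the falls were Cyp4p1, Cyp4ac3, Cyp9c1 and Cyp6a8. Within this family 31 differences were positive and 50 negative, against 5952 and 6030 over all genes. The calls ran in both directions, more of them down. Of 34 glutathione S-transferases GstS1 rose (0.59 ± 0.129, adjusted p = 0.0382, and at most 0.151 when 1 array other than RafGOF NotchDN replicate 1 was left out), of 22 antimicrobial and IMD genes Drsl2 rose, of 20 stress and redox genes Prx6c fell, and of 16 chitinases and related genes Cht2 fell. With the block 3 of these lists gained a call each, named after the values were seen. They were GstD3 (0.88, adjusted p = 0.106, and 0.0108 with the block), pirk, a brake on IMD signalling (1.08, adjusted p = 0.242, and 0.0355 with the block), and Hsc70-3, the BiP chaperone of the endoplasmic reticulum (-0.47, adjusted p = 0.343, and 0.0206 with the block). Other drosomycin-like genes were not called, with Drsl3 at -0.96 (adjusted p = 0.796) and Drsl4 at 0.00. These 2 were picked after their values were seen.

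In 2 lists nearly all differences had 1 sign though no gene was called. All 22 nucleolar ribosome biogenesis genes had a positive difference, from 0.09 to 0.51 with a median of 0.30. None was called, 11 had an unadjusted p under 0.05, and 4 rose with the block, among them NHP2 (0.43, adjusted p = 0.0836, and 0.0404 with the block) and Nop56 (0.41), both proteins of small nucleolar ribonucleoproteins. Of 19 septate junction genes 17 had a negative difference, with a median of -0.30. None was called, 4 had an unadjusted p under 0.05, and with the block 4 fell and 1 rose. Ssk and Tsp2A, of the smooth septate junctions that seal enterocytes, differed by -0.65 and -0.72 (adjusted p = 0.0188 and 0.0124 with the block, 0.144 and 0.473 without it). Among 25 integrin and matrix genes kon fell, and with the block 4 fell and 3 rose. The 3 rises with the block were the laminin chains LanB1 (0.89), LanB2 (0.61) and LanA (0.47), and the falls included Mmp2, a matrix metalloprotease (-1.26), and cher, the filamin (-1.07). Members named here other than kon and Mmp2 were picked after their values were seen.

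**Figure D5:**
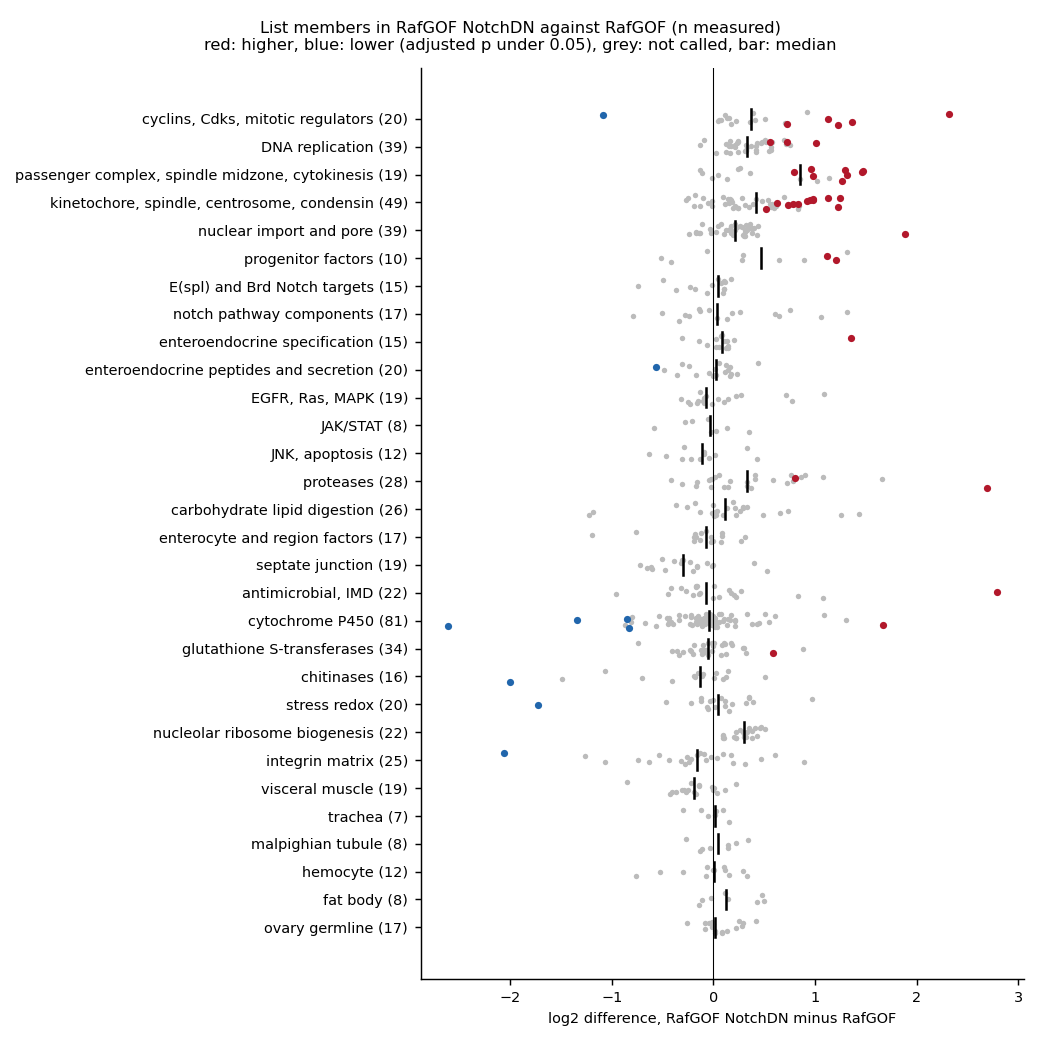
Log2 difference of RafGOF NotchDN minus RafGOF (x axis) for each measured gene of the 30 lists, with the list median as a bar and the number of measured genes in brackets. The cell division lists at the top hold 28 of the 37 list genes that rose, and the 6 lists of other tissues have no gene called without the block and medians between -0.19 and 0.12.

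Genes of the other cell types that a dissected midgut can carry were not called without the block. Of 19 visceral muscle genes none was called by limma (median -0.19, 2 with an unadjusted p under 0.05), 14 were negative, and the mean level was 8.31 to 8.5 on the RafGOF NotchDN arrays and 8.48 to 8.85 on the RafGOF arrays. With the block Zasp52, of the sarcomere, fell by 0.85 (adjusted p = 0.0195 with the block). The 7 tracheal, 8 Malpighian tubule, 12 hemocyte, 8 fat body and 17 ovary and germline genes had medians between 0.01 and 0.12 with no call in the fit without the block, and 1, 0, 2, 0 and 2 of them had an unadjusted p under 0.05. With the block 1 of the hemocyte genes fell, Ppn, an extracellular matrix protein (-0.53, adjusted p = 0.167, and 0.0293 with the block), named after its value was seen. Mean levels on the RafGOF NotchDN and RafGOF arrays were 8.23 to 8.79 and 8.19 to 8.72 for tubule genes, and 6.97 to 7.97 and 6.92 to 7.67 for fat body genes. They were 5.65 to 5.85 and 5.7 to 5.89 for trachea, 5.61 to 5.72 and 5.6 to 6.01 for hemocytes, and 5.24 to 5.25 and 5.12 to 5.22 for ovary. The mean of the ovary list did not overlap between the groups, and its part in the results was not tested.

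A direct comparison of the arrays with NotchDN and those with NotchIC, both on top of RafGOF, gave more calls. Of 18769 probe sets 1637 differed (8.72%), 870 higher (4.64%) and 767 lower (4.09%) in RafGOF NotchDN, and with the block 8.22% were higher and 10.4% lower, 3500 in all. Without RafGOF NotchDN replicate 3 the count was 989. Of the 127 cell division genes 88 were higher and 1 lower in RafGOF NotchDN than in RafGOF NotchIC, with a median of 0.97, while over all genes 6.09% were higher and 5.47% lower. Cks30A differed by 4.89 (adjusted p = 3.58e-09), Pen by 5.01 (adjusted p = 7.58e-07), borr by 3.48 (adjusted p = 1.93e-06), and fzr by -1.19 (adjusted p = 0.000561).

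Among the progenitor and Notch genes, Delta was higher in RafGOF NotchDN than in RafGOF NotchIC by 2.27 (adjusted p = 0.00034), esg by 2.14 (adjusted p = 0.000403), spdo by 1.51 (adjusted p = 1.45e-05) and sc by 2.39 (adjusted p = 5.3e-06). klu was lower by 1.09 in RafGOF NotchDN (adjusted p = 0.000963) and E(spl)mbeta-HLH by 0.96 (adjusted p = 0.00293). Of the 15 Notch targets 2 were lower and none higher in RafGOF NotchDN, the other being E(spl)m7-HLH (-0.65, adjusted p = 0.0395).

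Some leading genes of the comparison with RafGOF were not called between the arrays with NotchDN and those with NotchIC. Each of the following pairs of values shares the RafGOF arrays. CG31810 differed from RafGOF by 3.07 with NotchDN and by 3.49 with NotchIC, Cyp6a9 by 1.67 and 2.13, Jon25Biii by 2.69 and 2.16, and Drsl2 by 2.79 and 4.27. Between NotchDN and NotchIC these 4 genes differed by -0.42, -0.45, 0.53 and -1.47, with adjusted p of 0.197, 0.268, 0.653 and 0.128. Among the falls, Prx6c differed from RafGOF by -1.73 with NotchDN and -1.33 with NotchIC, and Ugt36E1 by -0.79 and -0.77. Between NotchDN and NotchIC they differed by -0.41 (adjusted p = 0.509) and -0.01 (adjusted p = 0.97). Cyp4p1 differed from RafGOF by -2.61 with NotchDN and -1.80 with NotchIC, and was lower with NotchDN than with NotchIC by 0.81 (adjusted p = 0.00598).

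Other falls were called against both groups. Cht2 was lower in RafGOF NotchDN than in RafGOF NotchIC by 2.07 (adjusted p = 3.96e-05), Erasp by 3.44 (adjusted p = 0.000101), kon by 1.46 (adjusted p = 0.00545) and hh by 1.08 (adjusted p = 0.0228). bw, among the rises, was higher in RafGOF NotchDN than in RafGOF NotchIC by 1.60 (adjusted p = 0.000531), while RafGOF NotchIC differed from RafGOF by 0.05 (adjusted p = 0.988).

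With 1 probe set per gene, genes called only with the replicate block numbered 476, 159 higher and 317 lower. Delta is among them by its probe set of highest mean signal, while its second probe set was called without the block too (limma adjusted p = 0.00944). The largest rises were MFS12 (1.78, adjusted p = 0.0346 with the block and 0.161 without it), a transporter of the major facilitator family, Delta, Incenp, Mink and Pvf2, a ligand of the PDGF and VEGF receptor (1.12, adjusted p = 0.0113 with the block). The largest falls were cGlr1, a cGAS-like receptor of the innate immune system (-1.93, adjusted p = 0.0336 with the block and 0.0515 without it), Mmp2, Swip-1, Tsp42Ei and exex. cGlr1 read 5.68, 6.56, 6.94 and 8.07 in RafGOF NotchDN, against 8.36, 8.75, 9.22 and 8.65 in RafGOF, with no overlap. Swip-1 and Tsp42Ei overlapped between the groups.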

How the data were processed

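Expression of 16 midgut samples was measured on Affymetrix Drosophila Genome 2.0 arrays, from total RNA labelled by a 3' in vitro transcription kit, per the labels. The deposited values are log2 signals that the authors made with RMA, per the submitters' processing notes. The sources used here do not give the RMA software or version, and no further normalisation was applied. Of 18952 probe sets 183 controls were set aside and 18769 tested. By the supplied platform annotation 13647 had 1 symbol, 402 several and 4720 none, and each of 11982 genes was represented by its probe set of highest mean signal. RMA compresses weak signals, so differences near the floor are understated.

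A linear model with a mean for each of the 4 groups was fitted to the 16 arrays with limma 3.58.1 (R 4.3.3), which leaves 12 residual degrees of freedom, with empirical Bayes moderation and Benjamini-Hochberg adjustment over all probe sets. Calls are two-sided, at an adjusted p below 0.05. The SE of a difference is the moderated one and rests on all 16 arrays. Since no label states that a group's arrays came from different animals or pools, p-values reflect the spread among these arrays alone, which may be technical. The fit was also run on simulated arrays drawn independently. They lack the shared deviations of same-numbered arrays, so that run cannot speak to the effect of these deviations on the calls. The alternatives were the replicate number as a block, the 8 arrays alone, and both together (added after seeing the data). Others were a minimum mean of 5, median centring of each array, trend moderation and the mean of a gene's probe sets. The arrays numbered 2 were also left out together, and each array of RafGOF NotchDN and RafGOF was left out in turn. No single array of RafGOF NotchIC or wild type was left out. The replicate numbers were taken to pair the arrays because every same-numbered correlation of deviations passed 0.1. RafGOF NotchDN replicate 4 with RafGOF replicate 3 passed it too (r = 0.154), below every same-numbered value. The replicate numbers come from the sample titles, which do not say what they stand for.

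The 30 gene lists held 791 entries, of which 663 were measured (660 distinct genes). The named genes were the 20 largest rises and falls without overlap between the groups, symbols of a CG number passed over, every called list member, uncalled members of the progenitor, Notch, enteroendocrine specification, EGFR and JAK/STAT lists, and the 5 largest rises and falls called only with the block. The members of the comparison, the lists and the rule were chosen with earlier results of these data known. No sequence was used.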

Additional observations from a re-analysis of the deposited data

Results flagged for a closer look

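In 142 groups of 4 arrays (71 called genes named in the report, in RafGOF NotchDN and in RafGOF), 10 held an array far from the other 3. Chance flags about 1 in 20 groups.

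On RafGOF NotchDN replicate 1, 6 genes were low. Cyp4p1 was at 7.43 there and at 8.11 to 8.18 on the other 3 arrays of its group, Gyg at 6.78 and 7.43 to 7.48, PolD2 at 8.5 and 8.8 to 8.85, Ts at 9.01 and 9.77 to 9.82, Det at 8.79 and 9.26 to 9.31, and Nuf2 at 6.8 and 7.64 to 7.78. For PolD2, Ts, Det and Nuf2, which rose, the low array lies on the side of RafGOF, and for Cyp4p1 and Gyg, which fell, on the side away from it. In RafGOF, replicate 2 was high for Pen (9.61, against 8.27 to 8.43 on the other 3) and for sip2 (7.63, against 6.7 to 6.86). Replicate 1 of RafGOF was low for rst (5.3, against 6.03 to 6.12), and replicate 4 of RafGOF for Ugt36E1 (5.27, against 5.48 to 5.53). RafGOF replicate 2 is 1 of the arrays numbered 2 that stood apart, and its part in the values of Pen and sip2 was not tested.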

How the results depend on the processing

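The 204 calls of RafGOF NotchDN minus RafGOF became 27 with the 8 arrays alone, 1705 with the 8 arrays and the replicate block, 134 with median centring, 792 with the replicate block and 129 without the arrays numbered 2, and ran from 102 to 232 when 1 array was left out. The 1637 calls against RafGOF NotchIC became 2666 with the 8 arrays of that comparison and the block, and 3500 with the block. They became 1201 with those 8 arrays alone, 1399 with median centring, 1451 with trend moderation and 1416 without the arrays numbered 2. When 1 array of RafGOF NotchDN or RafGOF was left out they ran from 989 to 1694. No single array of RafGOF NotchIC was left out. Called list genes (46) became 7, 195 and 100 with the 8 arrays, the 8 arrays and the block, and the block, and ran from 24 to 57. Cell division genes that rose (28) became 4, 70, 17 and 44 with the 8 arrays, the 8 arrays and the block, median centring and the block, and ran from 13 to 37. The fit on 8 arrays has fewer residual degrees of freedom. The cause of the changes in these counts, that with the 8 arrays included, was not tested. Of 71 named called genes, 40 kept their call in each fit that left out 1 array and 31 lost it in at least 1 (adjusted p of at most 0.184). With the block or with the 8 arrays and the block none of the 71 lost its call, 57 lost it with the 8 arrays alone, 18 with median centring, 24 without the arrays numbered 2, and 2 each with trend moderation and the mean of probe sets. No named gene that was called in either fit changed direction in any of these alternatives. In the lists for which the report gives no count with the block, the block left the counts of rises and falls as they were. A minimum mean of 5 left 203 calls. Of the 71 named called genes 68 passed this filter and kept their call, while zfh2, Ugt36E1 and Sse lay below it. The number of arrays and the floor of weak probe sets limit the smallest change that can be seen.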

Other observations

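The genes below were picked from the 164 called genes after their values were seen, with no test of their choice. Among further rises, pon, the adaptor that follows Numb in dividing neuroblasts, was higher in RafGOF NotchDN by 1.16 ± 0.107 (adjusted p = 3.98e-05). The telomere-capping proteins cav and HipHop rose by 1.0 and 0.87. Nnf1a, a kinetochore subunit, rose by 0.90 and bora, an activator of Aurora A, by 0.71. boi, a co-receptor for Hedgehog, rose by 1.11 ± 0.194 (adjusted p = 0.00958), while hh itself fell by 1.27. rumi, which adds glucose to Notch, rose by 0.85 ± 0.161 (adjusted p = 0.0174), and pyd, the fly ZO-1 protein of cell junctions, by 0.85. PH4alphaEFB, a collagen prolyl hydroxylase and the neighbour of spdo in the RefSeq gene order, rose by 0.85. Calls of Nnf1a and PH4alphaEFB were each lost in 6 of the 8 fits that left out 1 array, that of rumi in 4 and those of bora and pyd in 2, with adjusted p of at most 0.143.

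Among further falls, Gp93, the Hsp90 of the endoplasmic reticulum, fell by 0.73, Ero1L, the oxidase of protein disulfides, by 0.69, and Manf, a secreted stress protein, by 0.58 (adjusted p = 0.0349, 0.0349 and 0.0328). SCAP, the escort of the lipid regulator SREBP, fell by 0.76, Rab9 by 0.70, and p38a, a stress-activated MAP kinase, by 0.69 ± 0.133 (adjusted p = 0.0181). Calls of Gp93, Ero1L, Manf and Rab9 were each lost in 5 of the 8 fits that left out 1 array, that of p38a in 3 and that of SCAP in 1, with adjusted p of at most 0.136.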
